A study of Mus musculus with 8 samples.

Results

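Fatty acid oxidation and ketogenesis were examined in mouse livers with and without hepatocytic thioredoxin reductase 1 (Txnrd1), through 37 genes of the pathway on oligonucleotide arrays. The genes were listed by name: 8 for activation of fatty acids and the carnitine shuttle, 16 for mitochondrial oxidation, 7 for peroxisomal oxidation, 1 for ketone bodies (Bdh1) and 5 that respond to the nuclear receptor PPAR alpha. A usable probe set was found for 35 of the 37, among 18193 genes in all, and these 35 genes had 60 probe sets. Acsl1 and Ucp2 were not analysed here.

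Total RNA came from whole livers of young adult males, kept 1 per cage for 10 days under 14 hours of light and 10 hours of dark and killed in the afternoon. There were 4 livers of genotype txnrd1 cond/+ albCre0 (animals 70, 71, 80 and 82) and 4 of genotype txnrd1 cond/- albCre1 (animals 69, 72, 73 and 81), with 1 array per animal. The albCre transgene expresses Cre from the albumin promoter in hepatocytes, where it converts the conditional allele to a null allele, so that hepatocytes of the second group are txnrd1-/- while the other liver cells keep the conditional allele. The controls lacked Cre and also carried a wild-type allele in place of the null allele, so the effects of Cre, of the null allele in the other cells and of Txnrd1 loss in hepatocytes cannot be told apart. In whole liver, fewer cells of a type and less RNA per cell cannot be told apart either.

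The liver burns fatty acids in both mitochondria and peroxisomes. Acyl-CoA synthetases activate the fatty acid, the carnitine shuttle carries long chains into mitochondria, and the acyl-CoA is then shortened by repeated rounds of dehydrogenation, hydration, a second dehydrogenation and thiolysis. Peroxisomes shorten very long and branched chains and the side chain of bile acid precursors. In fasting, PPAR alpha raises transcription of many of these genes and the liver exports ketone bodies made from the acetyl-CoA.

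Each deposited value is a ratio in which both the array and the probe set had been centred near 1, so levels could be compared between animals but not between genes. A gene was the mean of its probe sets on the log2 scale, and the genotypes were compared with limma across all 18193 genes with Benjamini-Hochberg adjustment. A gene was called at an adjusted p of at most 0.05 with a difference of at least 1.5-fold, a rule that called 15 genes, or 0.0824% of those tested. The p and fold thresholds of the study's methods, an unadjusted p of at most 0.05 with a 1.5-fold difference, were passed by 119 genes, or 0.654%. The methods also required a minimum raw signal per probe set, which ratios do not hold, so "study thresholds" below means the p and fold parts alone, applied to genes unless probe sets are named.

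Several facts about the arrays touch the results below. Liver 71 (a control) carried pancreatic acinar RNA: 8 of 10 acinar markers were measured, and their summed ratio was 133 in that animal against 6.73 to 8.52 in the other 3 controls and 6.54 to 8.48 in the livers with txnrd1-/- hepatocytes, with carboxypeptidase Cpa1 at 26.3. Of 9 hepatocyte markers, 7 were measured, and each of the 7 had a 95% interval inside 1.5-fold, as did 82.5% of all genes. Their summed ratio was 7.01 to 7.23 in controls and 6.54 to 7.18 in the livers with txnrd1-/- hepatocytes. Among them Apoa1 did not overlap between genotypes and was lower in the second group, at a log2 difference of -0.07. Among the markers of other cell types, 0 of 7 Kupffer cell, 0 of 7 endothelial, 0 of 7 stellate cell, 0 of 5 bile duct, 0 of 6 neutrophil and erythroid, 0 of 8 acinar and 0 of 4 fat cell genes were called, and all 7 endothelial and all 7 stellate estimates were below 0 (medians of -0.19 and -0.11 on the log2 scale). Intervals lay inside 1.5-fold for 5 of 7 Kupffer cell, 3 of 7 endothelial, 3 of 7 stellate cell and 4 of 5 bile duct genes. For neutrophil and erythroid, acinar and fat cell genes the counts were 0 of 6, 0 of 8 and 4 of 4. Animals 82 and 72 had the lowest weights (0.493 and 0.460) when limma estimated the quality of each array. The 3 probe sets of Txnrd1 disagreed in sign, with log2 differences of 1.11, -0.71 and -0.41, so their mean of -0.00 did not check the genotype labels. Taken singly, the first and the last did not overlap between genotypes, but they went in opposite directions. The first was higher and the last lower in the livers with txnrd1-/- hepatocytes. No Txnrd1 probe set had a limma adjusted p of at most 0.05. The first had ratios of 0.410 to 0.900 in controls and 1.10 to 2.00 in the livers with txnrd1-/- hepatocytes. The last had 1.03 to 1.33 and 0.755 to 0.965. The middle one overlapped between genotypes, with control 71 at 0.993 and animal 69 at 0.997.

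None of the 35 measured genes was called. None passed the study thresholds either, and 34 of the 35 differed by less than 1.5-fold. At an unadjusted p of at most 0.05 alone there was 1 gene, Acsl5, against 2.32% of all genes (422 of 18193). In no member did the genotypes separate without overlap, as they did in 1.71% of all genes. The lowest exact permutation p of any member over the 8 animals (2-sided) was 0.0571, where the design allows 0.0286.

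The 95% interval of the difference lay inside 1.5-fold in both directions for 25 of the 35 members, compared with 82.5% of all genes. By role this held for 15 of 16 mitochondrial genes, 5 of 7 peroxisomal genes, 4 of 7 activation and carnitine genes, Bdh1, and 0 of 4 PPAR alpha responsive companions. The median log2 difference over the 35 members was 0.00, equal to that of all genes (0.00), with 19 members above 0 and 16 below. The median size of the difference, ignoring its sign, was 0.14 among members and 0.08 among all genes, while the median standard deviation within genotypes was 0.20 in both.

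**Figure D1:**
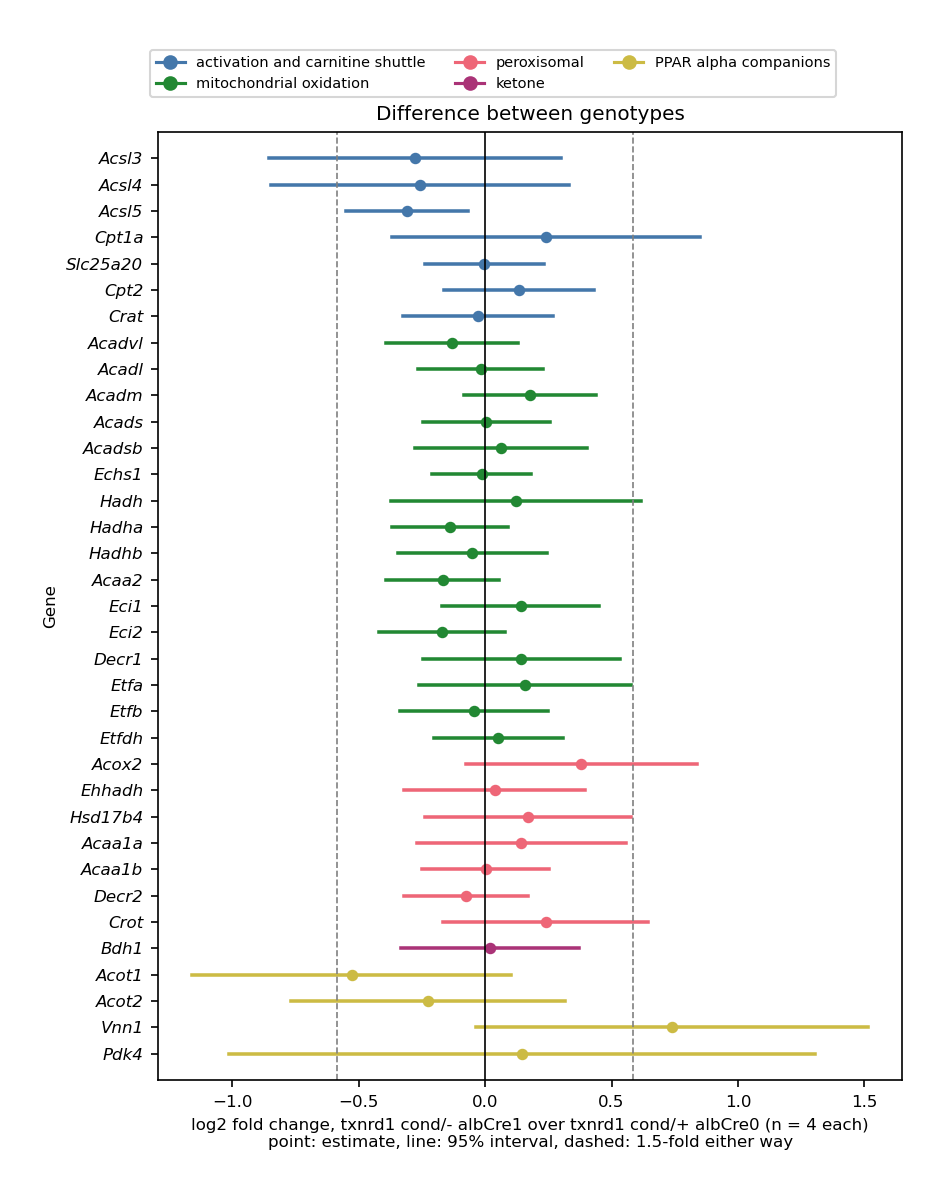
Difference between genotypes for the 35 measured genes, as log2 fold change of txnrd1 cond/- albCre1 over txnrd1 cond/+ albCre0 livers (horizontal axis; points are limma estimates, lines 95% intervals, n = 4 animals per genotype, dashed lines 1.5-fold in either direction), coloured by role. The intervals of 34 genes include 0; that of Acsl5 does not, and only the Vnn1 estimate lies beyond a dashed line.

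Activation of fatty acids was the step with the lowest p. Acsl5, an acyl-CoA synthetase that converts long-chain fatty acids to their CoA esters, had ratios of 1.18, 1.26, 1.23 and 0.989 in control animals 70, 71, 80 and 82, and of 1.01, 0.917, 0.940 and 0.882 in animals 69, 72, 73 and 81. Control 82 lay among the livers with txnrd1-/- hepatocytes and below animal 69, and the other 3 controls lay above all 4 of them. The mean was 1.16 ± 0.121 (SD, n = 4) in controls and 0.937 ± 0.0540 (SD, n = 4) without hepatocytic Txnrd1, a log2 difference of -0.31 with a standard error of 0.11. The difference had an unadjusted p of 0.0177 and a limma adjusted p of 1.00, and the unadjusted p rose to 0.0505 without animal 71, the liver with acinar RNA, and to 0.146 with the less variable genes left out of the fit.

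The synthetases Acsl3 and Acsl4 varied between animals more than between genotypes. Acsl3 ratios were 1.27, 1.06, 1.37 and 0.628 in the controls and 1.14, 0.645, 0.957 and 0.762 in animals 69, 72, 73 and 81. Acsl4, which prefers arachidonate, gave 1.19, 1.12, 1.20 and 0.565 in the controls and 1.05, 0.628, 0.965 and 0.700 in the same order of the others. Both genes were lowest in control 82, followed by animal 72, the 2 arrays of lowest weight, and both were highest in control 80. Their log2 differences were -0.28 (standard error 0.26) and -0.26 (standard error 0.26), with unadjusted p of 0.309 and 0.351. Without control 82 the unadjusted p fell to 0.0285 for Acsl3 and 0.0202 for Acsl4, at log2 differences of -0.52 and -0.52.

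In the carnitine shuttle, Slc25a20, the carnitine and acylcarnitine exchanger of the inner membrane, differed least, with a log2 difference of -0.00 and a 95% interval of -0.24 to 0.23. Cpt2, which re-forms the acyl-CoA inside mitochondria, gave 0.14 (-0.16 to 0.43), and Crat, the short-chain carnitine acetyltransferase, gave -0.03 (-0.32 to 0.27). Cpt1a, the malonyl-CoA sensitive entry step of the liver, had ratios of 0.990, 1.57, 0.664 and 0.747 in controls and 1.04, 1.30, 0.801 and 1.40 in animals 69, 72, 73 and 81. The highest and the lowest value of Cpt1a were thus both in controls, 71 and 80. Its log2 difference of 0.24 (standard error 0.27, unadjusted p of 0.398) depended on the probe sets averaged. The probe set with no x_at suffix gave -0.00, and 2 x_at probe sets, a suffix that marks probes able to cross-hybridise, gave 0.30 and 0.42.

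The 16 mitochondrial genes lay within a narrow band. Their log2 differences ran from -0.17 (Eci2, which moves double bonds into the position needed for oxidation) to 0.18 (Acadm, the medium-chain acyl-CoA dehydrogenase), with 8 above and 8 below 0. The mean log2 ratio over the 16 genes lay between -0.06 and 0.04 in the controls and between -0.06 and 0.06 in the livers with txnrd1-/- hepatocytes. No mitochondrial gene had an unadjusted p under 0.125, the value of Acaa2, the final thiolase.

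Among the acyl-CoA dehydrogenases, which take chains of different length, Acadm ratios were 0.952, 0.892, 1.09 and 0.828 in controls and 1.06, 0.963, 1.03 and 1.19 in animals 69, 72, 73 and 81. Control 80 exceeded all of the second group but animal 81, and the groups overlapped. The other dehydrogenases had log2 differences of -0.13 for Acadvl (very long chains), -0.02 for Acadl (long chains), 0.00 for Acads (short chains) and 0.06 for Acadsb (short branched chains). All 5 had 95% intervals inside 1.5-fold.

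Of the later steps, the hydratase Echs1 was the steadiest member, with ratios of 1.00, 0.994, 1.06 and 0.945 in controls and 0.978, 1.01, 1.00 and 0.965 in animals 69, 72, 73 and 81. Its standard deviation within genotypes was 0.05 on the log2 scale, and its log2 difference was -0.01 (95% interval -0.21 to 0.18). Both subunits of the trifunctional protein stayed close, at -0.14 for Hadha and -0.05 for Hadhb. Hadh, the dehydrogenase of short and medium hydroxyacyl chains, gave 0.12 and was the mitochondrial gene whose interval passed 1.5-fold (-0.37 to 0.62). The isomerase Eci1 gave 0.14, the dienoyl-CoA reductase Decr1 gave 0.14 and Acaa2 gave -0.17. The electron carriers that pass electrons from the dehydrogenases to the respiratory chain gave 0.16 (Etfa), -0.04 (Etfb) and 0.05 (Etfdh), and control 82 was the lowest animal for Etfa at 0.618.

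The peroxisomal genes lay higher in the livers with txnrd1-/- hepatocytes in 6 of 7 estimates, with a median log2 difference of 0.14, but none passed a test. Over all genes 9291 of 18193 estimates lay above 0. Another 18 peroxisomal genes outside the members did not share this lean, with 9 above and 9 below 0 and a median of 0.02. The median of the 7 members was 0.03 without control 80 and 0.04 without animal 81. Acox2, the oxidase of branched chains and bile acid precursors, had ratios of 0.716, 0.959, 0.997 and 1.11 in controls and 0.993, 1.32, 0.970 and 1.73 in animals 69, 72, 73 and 81. Animals 72 and 81 lay above every control, and animals 69 and 73 lay among them. The log2 difference was 0.38 with a standard error of 0.20 and an unadjusted p of 0.0933.

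Animal 81 was the highest liver for Acox2, Hsd17b4, Acaa1a, Acaa1b and Crot. The mean log2 ratio of the 7 peroxisomal genes was 0.37 in animal 81, compared with -0.16 to 0.07 in the other 3 livers with txnrd1-/- hepatocytes and -0.23 to 0.12 in controls. The bifunctional enzyme Ehhadh was 1.21 in animal 81 and 0.987 to 0.994 in the other 3 of its group, and the highest Ehhadh ratio, 1.33, was in control 71. Crot, which exports chains from peroxisomes as carnitine esters, was 1.35 in animal 81 against 0.983 to 1.01 in the other 3, and control 80 was lowest at 0.649. The log2 differences were 0.24 for Crot, 0.17 for the multifunctional enzyme Hsd17b4, 0.14 for the thiolase Acaa1a, 0.04 for Ehhadh, 0.00 for Acaa1b and -0.08 for the dienoyl-CoA reductase Decr2. Without animal 81 the difference of Acox2 was 0.21 and that of Crot 0.13.

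The thiolases Acaa1a and Acaa1b are near-identical copies. A pair of further probe sets annotated to both was not used for either gene; they gave log2 differences of -0.03 and -0.01, and on both the highest animal was again 81, at 1.54 and 1.26.

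For ketone bodies, Bdh1, which interconverts acetoacetate and 3-hydroxybutyrate, had ratios of 1.06, 1.04, 0.878 and 0.840 in controls and 1.06, 0.727, 0.960 and 1.16 in animals 69, 72, 73 and 81. Both extremes lay in livers with txnrd1-/- hepatocytes. The log2 difference was 0.02 (95% interval -0.33 to 0.37).

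A further list of ketone genes held 6 measured genes of 8, of which 0 were called and 0 passed the study thresholds. Acat1, the mitochondrial thiolase that supplies acetoacetyl-CoA, gave a log2 difference of 0.14 (95% interval -0.12 to 0.39). Slc16a6, a transporter through which ketone bodies leave hepatocytes, was the member of that list whose groups did not overlap, against 1.71% of all genes. Its ratios were 1.19, 1.02, 1.04 and 1.11 in controls and 0.763, 0.653, 0.883 and 0.989 in animals 69, 72, 73 and 81. Every liver with txnrd1-/- hepatocytes was below every control, but Slc16a6 passed the study thresholds in 0 of 16 alternatives. The log2 difference was -0.42 with a standard error of 0.14, an unadjusted p of 0.0117 and a limma adjusted p of 1.00.

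The 4 PPAR alpha responsive companions had the widest spans from the lowest to the highest animal. Vnn1, a pantetheinase that releases cysteamine and is strongly induced by PPAR alpha, had ratios of 1.06, 0.863, 0.436 and 0.955 in controls and 1.41, 0.885, 1.01 and 2.36 in animals 69, 72, 73 and 81. Animals 69 and 81 lay above every control, animals 72 and 73 lay among the controls, and control 80 was far below the rest. The means were 0.829 ± 0.274 (SD, n = 4) and 1.41 ± 0.669 (SD, n = 4), a 1.67-fold difference with a 95% interval from 0.974 to 2.86. On the log2 scale the difference was 0.74, and it was 0.45 without control 80 and 0.46 without animal 81, both under 1.5-fold. The unadjusted p was 0.0600 and the limma adjusted p 1.00. Of the 60 member probe sets, 1 passed the study thresholds, against 0.562% of all 45037 probe sets, and it was one of the Vnn1 pair, with a 1.72-fold difference at an unadjusted p of 0.0390; the other Vnn1 probe set gave 1.62-fold at 0.106.

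The thioesterases Acot1 and Acot2 split acyl-CoA back into free fatty acid and CoA, Acot1 in the cytosol and Acot2 in mitochondria. Acot1 ratios were 1.74, 0.883, 1.07 and 0.989 in controls and 1.01, 0.512, 0.649 and 1.12 in animals 69, 72, 73 and 81. Acot2 ratios were 1.72, 1.01, 1.01 and 0.839 in controls and 1.26, 0.673, 0.956 and 0.977 in the second group. Both were highest in control 70 and lowest in animal 72, and in both the groups overlapped. The log2 differences were -0.53 (standard error 0.28, unadjusted p of 0.0916) and -0.23 (standard error 0.24, unadjusted p of 0.374). A probe set annotated to both genes, used for neither, gave a log2 difference of -0.61 with an unadjusted p of 0.0203 and a limma adjusted p of 1.00, past the study thresholds at 0.653-fold, with its highest ratio (1.60) in control 70 and its lowest (0.562) in animal 72.

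Acot1 and Acot2 are neighbours on chromosome 12, and the 250 bases before their starts are shown because the 2 genes shared their highest and lowest animals. The sequences are from RefSeq on build GRCm38.p6, read 5′ to 3′ on the plus strand, at chr12:84009252-84009501 for Acot1 and chr12:83987611-83987860 for Acot2. Capitals mark the longest run of letters in common, which was 9 bases, starting 73 bases before the Acot1 start and 39 bases before the Acot2 start.
Acot1: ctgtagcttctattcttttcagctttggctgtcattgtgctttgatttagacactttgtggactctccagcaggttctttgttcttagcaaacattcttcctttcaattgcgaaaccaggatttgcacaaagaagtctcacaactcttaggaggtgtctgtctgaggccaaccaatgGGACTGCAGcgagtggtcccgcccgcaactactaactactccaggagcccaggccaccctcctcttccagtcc
Acot2: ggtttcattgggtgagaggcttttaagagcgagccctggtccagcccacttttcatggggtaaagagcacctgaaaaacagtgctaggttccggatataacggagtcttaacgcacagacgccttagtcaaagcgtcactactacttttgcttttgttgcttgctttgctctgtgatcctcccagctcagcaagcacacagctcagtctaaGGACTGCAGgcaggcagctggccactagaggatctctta

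PPAR alpha binds with RXR to a direct repeat of AGGTCA spaced by 1 base (AGGTCANAGGTCA, called DR1). Promoter entries were found for 32 of the 37 listed genes; Acaa2, Crat, Decr1, Hsd17b4 and Vnn1 had none. Searched on both strands with at most 2 mismatches over the 12 fixed letters, DR1 matched the 250 bases before the start in 2 of the 32 promoters, or 6.25%, and in 3.18% of 27025 promoters of all genes. The letters of both matches are shown because they are the members that hold one, with the 13 matched bases in capitals and 8 bases on each side in lower case, written on the strand that matches.
Echs1: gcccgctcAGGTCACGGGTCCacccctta
Etfa: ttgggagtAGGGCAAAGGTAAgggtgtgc
The Echs1 match lay 83 to 71 bases before the start at 2 mismatches, and that of Etfa 77 to 65 bases before the start, on the opposite strand, also at 2 mismatches. The core of the antioxidant response element bound by Nrf2 (TGACNNNGC, both strands, no mismatch) was found in 3 of the 32 promoters (Ucp2, Acox2 and Ehhadh), or 9.38%, and in 10.1% of all promoters. Acot1, Acot2, Acsl5 and Pdk4 held neither motif in this window, and a letter match is a description of the sequence only.

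Pdk4, the kinase that shuts off pyruvate dehydrogenase when fat is burned, had the largest standard deviation within genotypes of the 35 members. Its ratios were 1.79, 0.716, 2.26 and 0.593 in controls and 3.14, 0.815, 1.02 and 0.987 in animals 69, 72, 73 and 81. Animals 69, 80 and 70 were high and all others were near or below 1, so that both genotypes held high livers. The log2 difference was 0.15 with a standard error of 0.52, and the standard deviation within genotypes was 0.92. Leaving out animals in turn moved the difference from -0.29, without animal 69, to 0.47.

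**Figure D2:**
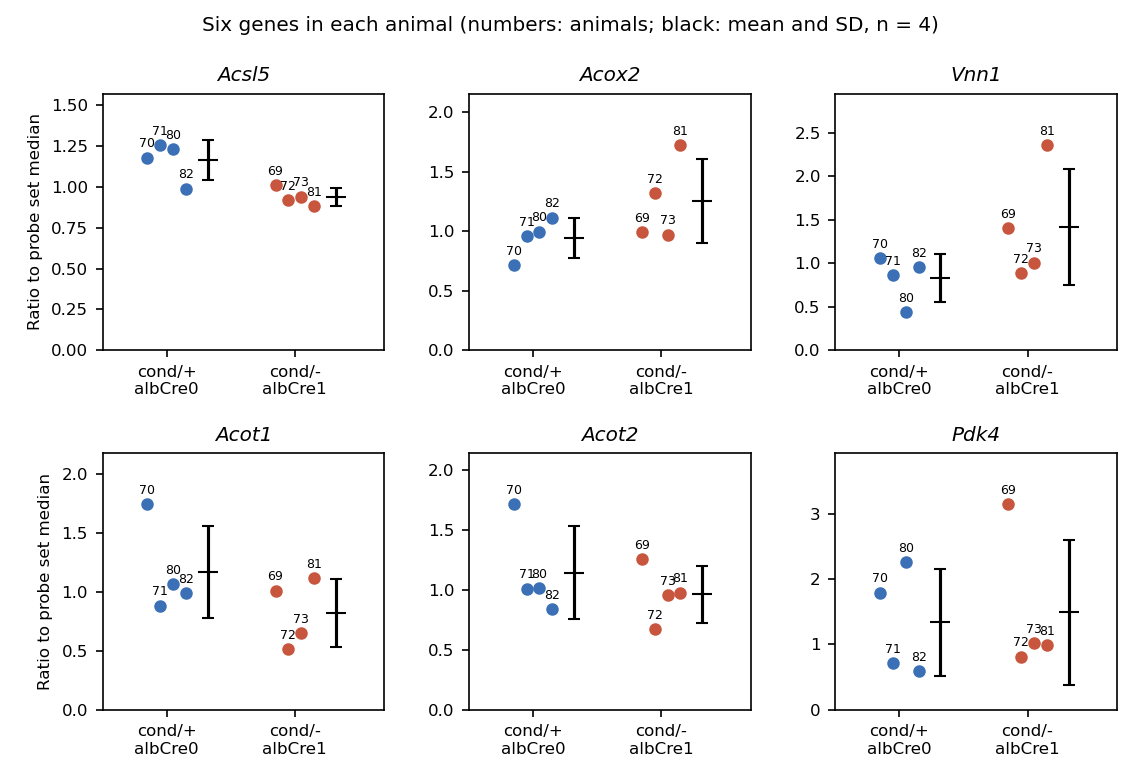
Ratios of Acsl5, Acox2, Vnn1, Acot1, Acot2 and Pdk4 (vertical axis, ratio to the probe set median, from 0) in each animal, numbered beside its point; black marks are the mean and SD of 4 animals. In every panel the 2 genotypes overlap, and single animals such as 81 for Vnn1 (2.36), 70 for Acot1 (1.74) and 69 for Pdk4 (3.14) lie apart from the rest.

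A few other genes of the lists had high and low values in the same animals as Pdk4. Acot3, a peroxisomal thioesterase, had ratios of 2.73, 0.548, 2.07 and 0.317 in controls and 1.91, 0.577, 1.42 and 0.372 in animals 69, 72, 73 and 81. Acot4, its neighbour in the family, gave 1.73, 0.758, 1.25 and 0.657 in controls and 1.43, 0.817, 1.08 and 0.831 in the others. Animals 70, 80 and 69 were the 3 highest for Pdk4, Acot3 and Acot4, and animal 82 was the lowest for all 3. Igfbp1, which rises when insulin is low, was likewise highest in animals 69 (1.82) and 70 (1.82) and lowest in 82 (0.460). The third highest animal for Igfbp1 was 72 (1.46), not 80. Ppargc1a, Cyp4a31 and Abcd2 also had animals 70, 80 and 69 as their 3 highest and animal 82 as their lowest. All these genes were chosen after their values were seen, and some fasting-responsive genes did not follow Pdk4. Pck1, a gluconeogenic enzyme, spanned 1.22-fold with its highest ratio in animal 82. Angptl4 spanned 1.42-fold, highest in animals 70 (1.14) and 69 (1.09) but lowest in animal 81. Cyp4a14 was highest in animal 71 and lowest in animal 81. High values in animals 70 and 69 with low values in 82 were not particular to these genes. The mean log2 ratio of 6 neutrophil and erythroid markers was highest in animals 70 (0.73) and 69 (0.46) and lowest in 82 (-0.86). That of 7 stellate cell markers was likewise highest in 70 (0.24) and 69 (0.23) and lowest in 82 (-0.50). Kupffer cell and endothelial markers were instead lowest in animal 72. Feeding state was not recorded in the labels. The log2 differences between genotypes were -0.19 for Acot3, -0.01 for Acot4 and 0.13 for Igfbp1.

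**Figure D3:**
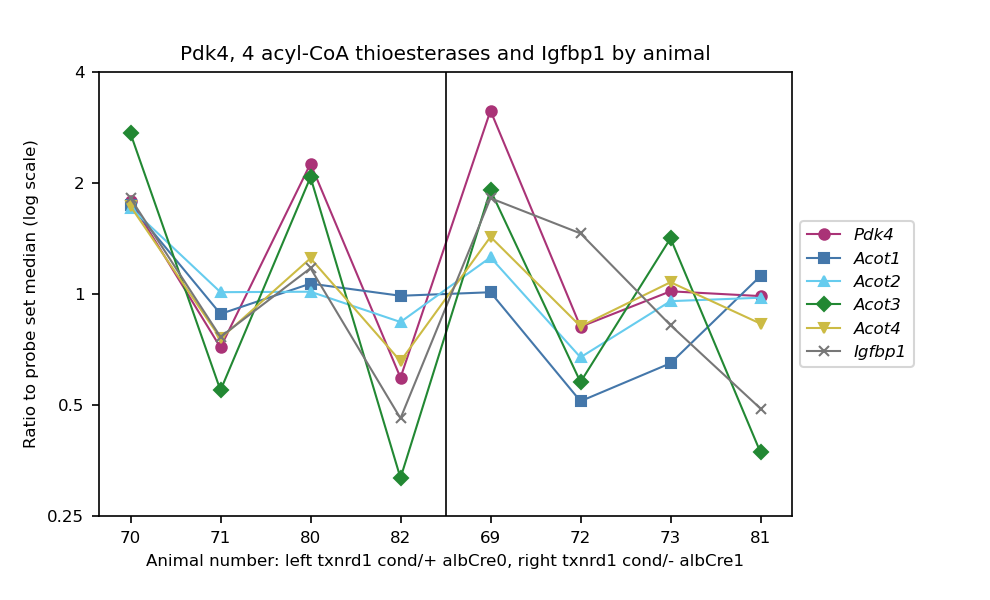
Ratio to the probe set median (vertical axis, log scale) of Pdk4, Acot1, Acot2, Acot3, Acot4 and Igfbp1 in the 8 animals (horizontal axis, controls left of the line); each line joins 1 gene's values. Animals 70 and 69 are high and animal 82 is low for Pdk4, Acot3, Acot4 and Igfbp1, and high and low livers occur in both genotypes.

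In 27 of the 35 members the standard deviation within genotypes exceeded the size of the difference between them, as it did in 87.4% of all genes. Animal 81 was the highest liver for 10 of the 35 genes, and animal 82 was the highest or lowest for 15, animal 80 for 14 and animal 69 for 3. Over the whole array the SD of the log2 ratios was widest in animal 82 (0.384) and narrowest in animal 69 (0.194). How often each animal was the extreme over all genes was not counted. A standard deviation within genotypes over 0.40 on the log2 scale was seen in 7 of 35 members, and in 8.52% of all genes.

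Probe sets of the same gene were also compared. Of the 35 members 18 had 2 or more probe sets, and in 7 of the 18 these differed in sign. The largest gap was 0.46 on the log2 scale, in Crot, where the probe sets gave 0.01 and 0.47. Of the 60 probe sets 11 carried the x_at suffix, in 8 genes, and 9 of the 11 were highest in animal 71, 72 or 81. These animals were picked after the values were seen. The same count was not made for probe sets without the suffix, so it describes the 11 only. One Hadh x_at probe set reached 3.15 in animal 71 and 3.29 in animal 72, while the Hadh probe set with no x_at suffix was 0.988 and 0.961 in the same livers. With all x_at probe sets left out, an alternative chosen after the data were seen, 33 members were measured, none was called and Cpt1a moved from 0.24 to -0.00.

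**Figure D4:**
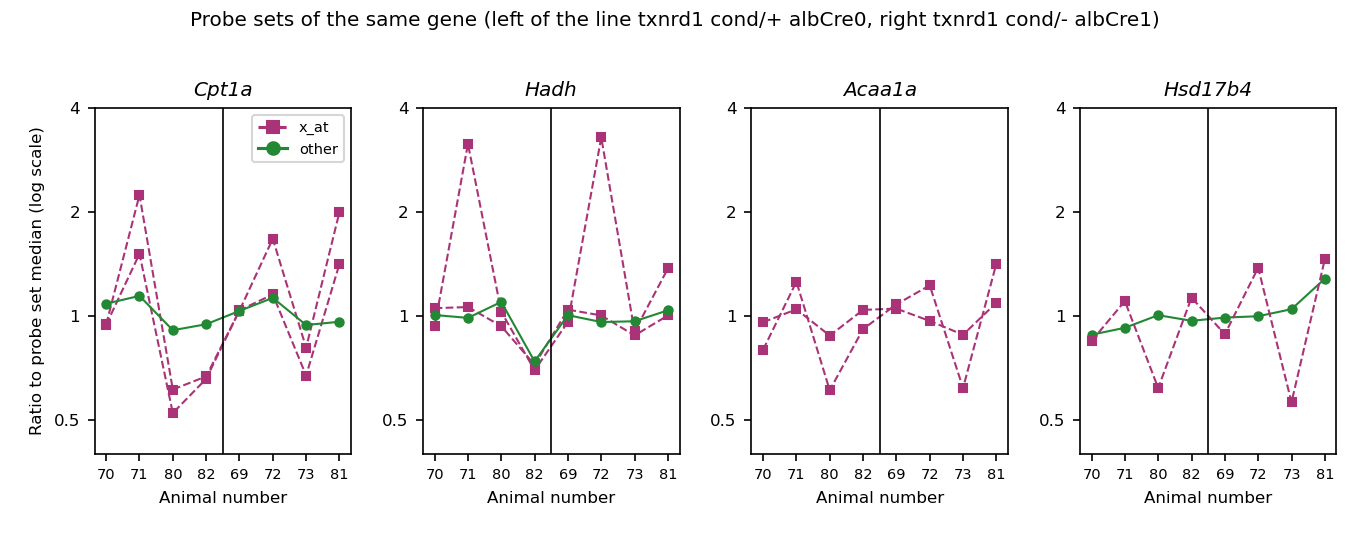
Ratio of each probe set (vertical axis, log scale) of Cpt1a, Hadh, Acaa1a and Hsd17b4 in the 8 animals (horizontal axis, controls left of the line); purple squares are x_at probe sets and green circles the others. The x_at probe sets of Cpt1a rise in animals 71, 72 and 81 while the other Cpt1a probe set stays between 0.910 and 1.14.

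Other genes of the pathway, taken from lists, gave few calls. Of 18 further mitochondrial genes 0 were called and 1 passed the study thresholds, against 0.654% of all genes. It was Slc22a5, the plasma membrane carnitine importer. Its ratios were 0.993, 0.669, 0.910 and 0.688 in controls and 1.41, 0.989, 1.06 and 1.62 in animals 69, 72, 73 and 81. Only control 70 reached the lowest liver of the second group. The log2 difference was 0.63 with a standard error of 0.19, an unadjusted p of 0.00883 and a limma adjusted p of 1.00. It passed the study thresholds in 12 of 16 alternatives and was under 1.5-fold without animals 71, 82, 69 or 81, at log2 differences of 0.54, 0.56, 0.57 and 0.50. Mmut, methylmalonyl-CoA mutase, did not overlap between genotypes, but its log2 difference was 0.12 with an unadjusted p of 0.235. Of 18 further peroxisomal genes 0 were called, 0 passed the study thresholds and 0 had an unadjusted p of at most 0.05.

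Among 20 measured genes of PPAR alpha, its partners and its targets, 0 were called and 1, Cd36, passed the study thresholds. The share of all genes past those thresholds was 0.654%. The 20 include Acadvl, which is also a member, and Ppargc1a, which is also on the list of fasting and feeding below. Ppara itself gave a log2 difference of -0.09 (95% interval -0.34 to 0.17) and its partner Rxra -0.03 (-0.22 to 0.16). Cd36, the fatty acid translocase, had ratios of 0.852, 0.688, 0.693 and 0.417 in controls and 1.31, 1.28, 1.35 and 2.14 in animals 69, 72, 73 and 81, so that every liver with txnrd1-/- hepatocytes lay above every control. Its log2 difference was 1.21 with a standard error of 0.24, an unadjusted p of 4.99e-04 and a limma adjusted p of 0.313. The limma adjusted p ranged from 0.00953 to 0.758 over 16 alternatives and was at most 0.05 in 2 of them, quantile normalization and the fit without the less variable genes. The SD behind the second of these included the genotype difference, so that fit gives no independent support for Cd36. Cd36 is also regulated by receptors other than PPAR alpha. The hormone Fgf21 was 5.32 in animal 81 and 0.777 to 1.41 in the other 7.

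Among 14 measured genes of fasting and feeding, 1 was called and 4 passed the study thresholds, against 0.0824% and 0.654% of all genes. The list was chosen with earlier results of these data known, so these counts are not a result about fasting and feeding genes as a group. Scd1, the stearoyl-CoA desaturase of fat synthesis, had ratios of 1.72, 1.88, 1.17 and 1.67 in controls and 0.639, 0.557, 0.623 and 0.835 in animals 69, 72, 73 and 81, with no overlap. It fell by 1.27 on the log2 scale, with a standard error of 0.17 and a limma adjusted p of 0.0412. The limma adjusted p ranged from 0.00177 to 0.223 over 16 alternatives and stayed at or under 0.05 in 8 of them; it was 0.150, 0.149, 0.137, 0.202, 0.132, 0.223 and 0.0539 without animals 70, 71, 82, 69, 72, 73 and 81 in turn. The fit without the less variable genes gives no independent support for Scd1 either, because its SD included the genotype difference. Srebf1, the regulator of fat synthesis, and Fasn, the fatty acid synthase, had log2 differences of -0.64 and -0.69 at unadjusted p of 6.05e-04 and 0.0134. Me1, which supplies NADPH for fat synthesis, had 0.69 at 0.0147. Srebf1 was under 1.5-fold with array weights and without control 80 (-0.58 and -0.54), Me1 without control 80 (0.43) and Fasn without animal 81 (-0.53). Srebf1 and Me1 did not overlap between genotypes and Fasn did. The adjusted p of these 3 genes was at least 0.355.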

How the data were processed

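The authors hybridised liver RNA from 8 mice to Affymetrix mouse arrays, 1 per animal, and analysed the signals in GeneSpring; the submitters' processing notes name RMA. The deposited table holds a linear ratio for each of 45101 probe sets. Tested on the file, each array's median ratio was 0.997 to 0.999 and 98.4% of probe sets had a median within 1% of 1 over the 8 arrays. A ratio hides signal and background, so no filter on low signal was possible, the number of arrays limits precision, and a member near background could not be told from a steady one. The annotation table gave 34945 probe sets 1 gene symbol, 932 several and 9160 none; 64 control probe sets and 5 empty values were left out.

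Log2 ratios of single-symbol probe sets were averaged per gene and fitted with limma 3.58.1 in R 4.3.3 (lmFit, eBayes, 2-sided), genotype being the single term, with Benjamini-Hochberg adjustment over 18193 genes; no pseudocount was needed. The fit was tested on simulated data. Exact permutation tests used all divisions of the 8 animals into groups of 4. The alternatives were quantile normalization, median centring, robust eBayes, array weights, the median of a gene's probe sets, a covariate for the 2 ranges of animal numbers (69 to 73 and 80 to 82), the more variable genes alone (SD above the median), and each animal left out. That SD was taken over all 8 arrays, so a large genotype difference helps a gene to pass.

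All 37 members are named by role. Full values are given for those that vary most or come nearest to a threshold, which goes beyond the rule for named genes. Of the other genes that passed a threshold or did not overlap, Slc16a6, Slc22a5, Cd36 and Scd1 are given with full values. Srebf1, Fasn, Me1, Mmut and the marker Apoa1 are given without the ratio of every animal. The members and lists were chosen with earlier results of these data known. Promoters came from RefSeq (GRCm38.p6), taking the first start listed for each gene. Some genes of the pathway are not reported here.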

Additional observations from a re-analysis of the deposited data

Results flagged for a closer look

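Of 70 sets of 4 livers examined (35 genes in each genotype), 5 held 1 animal far from the other 3, where chance gives about 1 in 20. Among controls, Acsl4 was 0.565 in animal 82 against 1.12 to 1.20 in the other 3. In the livers with txnrd1-/- hepatocytes, animal 81 was at 1.21 for Ehhadh (others 0.987 to 0.994) and at 1.35 for Crot (others 0.983 to 1.01). Acadsb was 1.35 in animal 72 against 0.976 to 1.00, and Pdk4 was 3.14 in animal 69 against 0.815 to 1.02. No cause was tested.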

How the results depend on the processing

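No member was called under any of the 16 alternatives, and the lowest limma adjusted p of any member among them was 0.965, without animal 82. Members at the study thresholds went from 0 to 1 with quantile normalization, with array weights and among the 19 members with an SD above the median (Vnn1 in each), and ranged from 0 to 1 with an animal left out (Vnn1 without 70 or 72, Acot1 without 81). Members at an unadjusted p of at most 0.05 went from 1 to 2 with quantile normalization, with array weights and with the covariate, each time Acsl5 and 1 other; with the less variable genes left out there were also 2, Acot1 and Vnn1, while Acsl5 was lost. They ranged from 0 (without 71) to 4 (without 82: Acsl3, Acsl4, Acsl5 and Eci1) with an animal left out. The 15 called genes became 8 with the covariate and 41 with the less variable genes left out, and 4 to 13 with an animal left out. The 119 genes at the study thresholds became 105 to 182, the highest without animal 72. With the less variable genes left out the median difference was -0.27 for activation and carnitine genes and 0.14 for mitochondrial genes. No member's estimate changed there. These medians moved only because members of low SD were dropped, and that SD included the genotype difference. The peroxisomal median was 0.03 to 0.28 with an animal left out. Signs changed in 0 to 8 members per alternative, all with a size of at most 0.24 before. The exact permutation test put Acsl5 (-0.31) at p = 0.0571. Apart from Vnn1, Acot1, Acsl3, Acsl4, Acsl5, Acox2 and Eci1, no member crossed a threshold. No paired analysis was possible because the genotypes share no animal number. The intervals of 10 members reach past 1.5-fold, so a difference of that size could not be bounded there.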
